A study of Homo sapiens with 4 samples.

Results

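The class I histone deacetylases HDAC1, HDAC2, HDAC3 and HDAC8 and the corepressor proteins NCOR1, SIN3A, MTA1 and MTA2 were followed at the mRNA level in SW1353, a line grown from a human chondrosarcoma that stands in for chondrocytes. The 8 genes were chosen by name, as every probe whose platform gene symbol was one of them. Of the 8, 7 had a probe in the platform annotation, with 1 probe each, and all 7 were detected on every array, among 10128 genes detected on at least 1 array. NCOR1 had no probe under its symbol in that annotation, and its level was not analysed here.

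RNA from 4 samples of this line, all cultured in DMEM, was hybridised to 1 Illumina whole-genome array each. The array called Con was the DMSO vehicle control, IL1 received vehicle and then IL-1α for 6 h, IL1_TSA received trichostatin A (TSA, 250 ng/ml) for 1 h and then IL-1α for 6 h, and Con_TSA received TSA without IL-1α, for a total time that the sources used here do not give, so exposure to TSA may differ between the TSA arrays. The time under IL-1α is the one in the sample labels, and the legends of the study name 8 h for this experiment. With 1 array per condition there was no replicate error for any value, so no test was made, and each difference below compares these arrays.

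Acetyl groups on histone tails loosen chromatin and are read by activating proteins, and histone deacetylases remove them. HDAC1 and HDAC2 form the catalytic core of several corepressor complexes, among them NuRD, SIN3, CoREST and MiDAC, whereas HDAC3 works in the NCOR complex and needs the deacetylase-activating domain of a corepressor such as NCOR1 for activity. HDAC8 is the class I enzyme that works outside these complexes. SIN3A is the scaffold of the SIN3 complex, and MTA1 and MTA2 are NuRD subunits that bind HDAC1 and HDAC2. TSA occupies the zinc-containing active site of class I and class II enzymes, and its inhibition of the enzyme is not seen in an mRNA level.

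Between 26.8% and 28.8% of the 48784 probes were detected (detection p under 0.01) on the 4 arrays. The median raw intensity was 113 on IL1_TSA and lay between 86.9 and 95.3 on the other arrays. Of the 8 reference genes measured, 0 differed by 1.5-fold in any comparison. The label of the cells was checked against fixed markers. Of the 12 chondrocyte markers, 3 were detected (SOX9, COL11A1 and HAPLN1), and COL2A1, ACAN, COL9A1 and COMP were not detected on any array. Of the 8 mesenchymal markers, 7 were detected, among them VIM and COL1A1. Of the 6 leukocyte markers only CD68 was detected, and of the 5 epithelial markers KRT8 and KRT18 were.

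Among the 8 genes HDAC3 showed the largest difference between arrays. Its mRNA was 2.28-fold higher in TSA-treated cells without IL-1 and 2.55-fold higher with IL-1. MTA2 was 1.37-fold and 1.54-fold lower in the same comparisons, and the latter call was lost in 3 of the other ways of processing and at a 2-fold threshold. HDAC1, HDAC2, HDAC8, SIN3A and MTA1 stayed within 1.5-fold in every comparison. IL-1 without TSA moved none of the 7 measured genes past 1.5-fold.

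The sequences upstream of HDAC3, MTA2 and HDAC1 are shown because HDAC3 and MTA2 were the genes whose levels differed by 1.5-fold, and HDAC1, a deacetylase of the same class as HDAC3, is set beside them. Each is the 250 bases before the gene's annotated start in RefSeq (GRCh38.p14), 5′ to 3′ along the gene's own strand, and capitals mark GGGCGG or, on the other strand, CCGCCC, the GC box letters. HDAC3 lies on the minus strand (chr5:141636850-141637099), MTA2 on the minus strand (chr11:62601866-62602115) and HDAC1 on the plus strand (chr1:32291833-32292082).
HDAC3: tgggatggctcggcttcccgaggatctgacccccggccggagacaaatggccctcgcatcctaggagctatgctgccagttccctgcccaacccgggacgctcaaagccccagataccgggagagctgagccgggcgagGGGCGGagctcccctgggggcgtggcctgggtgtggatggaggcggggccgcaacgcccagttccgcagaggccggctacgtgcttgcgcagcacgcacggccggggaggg
MTA2: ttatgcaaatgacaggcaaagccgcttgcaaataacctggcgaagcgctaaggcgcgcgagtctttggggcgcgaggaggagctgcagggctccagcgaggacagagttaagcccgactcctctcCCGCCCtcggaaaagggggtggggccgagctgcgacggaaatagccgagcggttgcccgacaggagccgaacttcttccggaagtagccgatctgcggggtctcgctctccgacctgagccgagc
HDAC1: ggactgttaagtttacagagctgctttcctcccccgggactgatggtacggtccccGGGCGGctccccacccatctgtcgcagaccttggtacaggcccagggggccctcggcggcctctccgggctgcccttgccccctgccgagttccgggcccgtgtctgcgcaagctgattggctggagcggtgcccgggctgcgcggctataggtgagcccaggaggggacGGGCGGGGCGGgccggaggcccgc

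The HDAC3 window was 70.8% G or C and held 1 GC box, which began 111 bases before the start. The MTA2 window was 63.2% G or C and held 1 GC box on the other strand, 125 bases before the start. HDAC1, at 71.6% G or C, held 3, and those beginning 24 and 19 bases before the start share a base. Of the genes within 1.5-fold, the HDAC2 and HDAC8 windows held 0, at 63.2% and 48% G or C, the MTA1 window held 3, and the SIN3A windows, at 2 annotated starts, held 1 and 4. A second MTA2 window held 1. A GC box was present in 42.6% of the 35116 promoter windows of this length, CCAAT (either strand) in 32% and TATAAA (either strand) in 10.7%. Neither CCAAT nor TATAAA occurred in the HDAC3 and MTA2 windows shown, and HDAC1 held 1 CCAAT. The motifs were chosen after the levels were known, and a match of letters does not show a bound site.

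HDAC3, the deacetylase of the NCOR complex, had levels of 10.43 in Con, 10.26 in IL1, 11.61 in IL1_TSA and 11.62 in Con_TSA. Levels are log2 of the background-corrected and quantile-normalised intensity. Both arrays from TSA-treated cells lay above both arrays without TSA, and the pair of TSA arrays differed from each other by 0.01. The raw intensities before any correction were 1431, 1240, 4037 and 2466 in the same order. The log2 difference with TSA was 1.19 without IL-1 and 1.35 with IL-1. The 2 comparisons share no array, and the values differed by 0.16, against a median gap of 0.28 over all genes. Of the 10128 genes, 505 lay further up than HDAC3 with TSA without IL-1 and 547 did so with IL-1.

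HDAC3 was the 1 gene of the 7 called higher in each of these comparisons, where a call means a difference of at least 1.5-fold with the probe detected on the brighter array. Over all genes, 16.3% were called higher with TSA without IL-1, 21.2% were called higher with TSA in IL-1-stimulated cells, and 12.4% were called higher in both. The count of 1 in 7 is no larger a share than that of all genes in either comparison. IL1_TSA against Con, a comparison that uses the same arrays again, gave 2.26-fold for HDAC3. With IL-1 alone HDAC3 differed by −0.18, a 1.13-fold lower level, and with IL-1 under TSA by −0.01. Over 10 ways of processing the arrays, the reported one included, the log2 difference of HDAC3 with TSA ran from 0.97 to 1.19 without IL-1 and from 1.17 to 1.52 with IL-1. The detection filters and the choice of probe, which are among these ways, could not change its value, as HDAC3 has a single probe detected on every array.

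**Figure D1:**
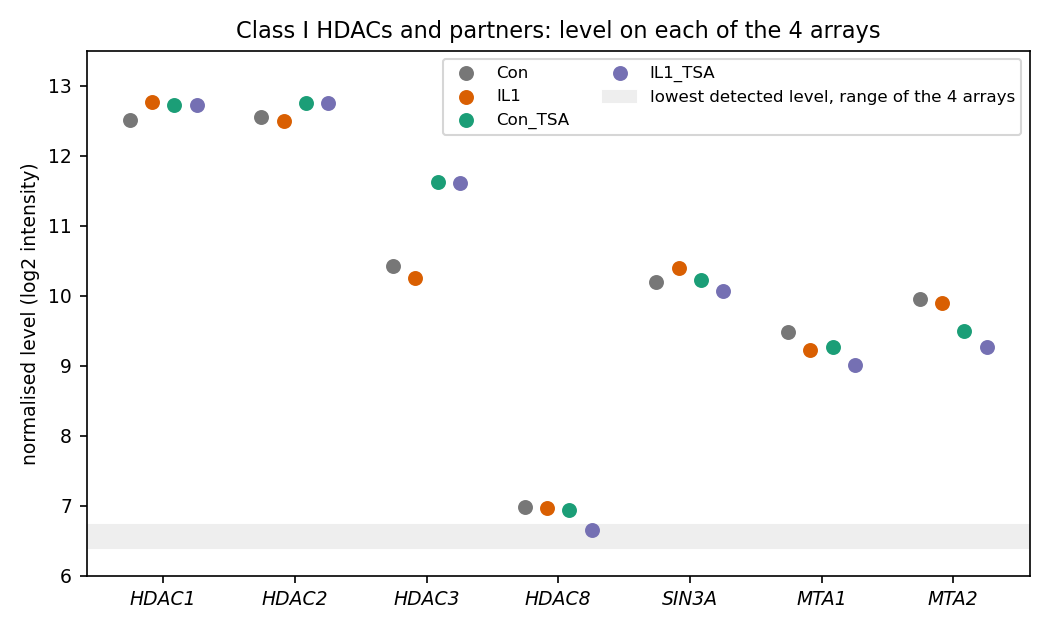
Level of each of the 7 measured genes (log2 normalised intensity, vertical axis) on the 4 arrays, 1 point per array, with no error bars because each condition had 1 array, and a grey band over the lowest detected levels of the arrays. HDAC3 stood at 11.61 and 11.62 on the TSA arrays against 10.26 and 10.43 without TSA, and MTA2 was lowest on IL1_TSA at 9.26.

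MTA2, a NuRD subunit that helps to hold HDAC1 and HDAC2 in the complex, went the other way. Its level was 9.95 in Con, 9.89 in IL1, 9.26 in IL1_TSA and 9.50 in Con_TSA. Both TSA arrays lay below both arrays without TSA, and IL1_TSA was the lowest of the 4. The log2 difference with TSA was −0.45 without IL-1, short of 1.5-fold, and −0.63 with IL-1, past it. MTA2 was the 1 gene of the 7 called lower in the comparison with IL-1, where 18.2% of all genes were called lower, and 0 of the 7 were called lower without IL-1, where 16.4% of all genes were.

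That call depended on the processing. With IL-1 the value was −0.56 without background correction, −0.41 under median scaling and −0.37 in the authors' deposited values, all short of 1.5-fold. Without IL-1 it was −0.64 under median scaling, which is past 1.5-fold. MTA2 was lower with TSA in every one of these, with a range of −0.64 to −0.24 without IL-1 and of −0.63 to −0.37 with it. In IL1_TSA against Con it was 1.61-fold lower.

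MTA1, the NuRD subunit related to MTA2, had levels of 9.48 in Con, 9.22 in IL1, 9.02 in IL1_TSA and 9.27 in Con_TSA. Con was the highest array and IL1_TSA the lowest, with the single treatments between them. The log2 difference with TSA was −0.21 in both comparisons, and the 2 values differed by 0.01. With IL-1 it was −0.26 without TSA and −0.25 with TSA. None of these reached 1.5-fold, and under median scaling the difference with TSA in IL-1-stimulated cells became 0.02 and the IL-1 difference under TSA became 0.17. In IL1_TSA against Con, MTA1 was 1.38-fold lower.

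HDAC1 had levels of 12.51 in Con, 12.77 in IL1, 12.72 in IL1_TSA and 12.72 in Con_TSA. The 3 treated arrays all lay above Con. The difference with IL-1 alone, 0.26 on the log2 scale or 1.20-fold, was the largest of its comparisons. TSA gave 0.21 without IL-1 and −0.05 with IL-1, and the latter turned to 0.07 under median scaling.

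HDAC2, the close paralogue of HDAC1, had levels of 12.55 in Con, 12.49 in IL1, 12.76 in IL1_TSA and 12.75 in Con_TSA. Both TSA arrays lay above both arrays without TSA, as for HDAC3, but by 1.15-fold without IL-1 and 1.21-fold with IL-1. The difference with IL-1 alone was −0.06, and the alternatives ran from −0.06 to 0.12.

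HDAC8, whose mRNA gave a signal near the detection limit, had levels of 6.98 in Con, 6.97 in IL1, 6.66 in IL1_TSA and 6.94 in Con_TSA. Its raw intensities were 195.7, 185.5, 217.5 and 162.3, and its detection p-values lay between 0.00395 and 0.00791, while the other 6 measured genes had a detection p of 0 on every array. The lowest level of any detected probe was 6.63, 6.73, 6.39 and 6.63 on the 4 arrays. The raw intensity was highest on IL1_TSA and the normalised level lowest there, on the array with the highest median raw intensity. The difference with TSA was −0.04 without IL-1 and −0.31 with IL-1, which is 1.24-fold. Whether HDAC8 mRNA differed between conditions was not detectable at this signal.

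SIN3A, the scaffold on which HDAC1 and HDAC2 assemble with the SIN3 subunits, had levels of 10.19 in Con, 10.39 in IL1, 10.07 in IL1_TSA and 10.23 in Con_TSA. The differences with TSA were 0.04 without IL-1 and −0.33 with IL-1, and those with IL-1 were 0.20 without TSA and −0.16 under TSA. The highest and lowest arrays were thus the pair stimulated with IL-1, and neither single difference reached 1.5-fold. The alternatives ran from −0.16 to 0.10 for TSA without IL-1 and from −0.19 to 0.25 for IL-1 under TSA, so that both signs occurred.

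**Figure D2:**
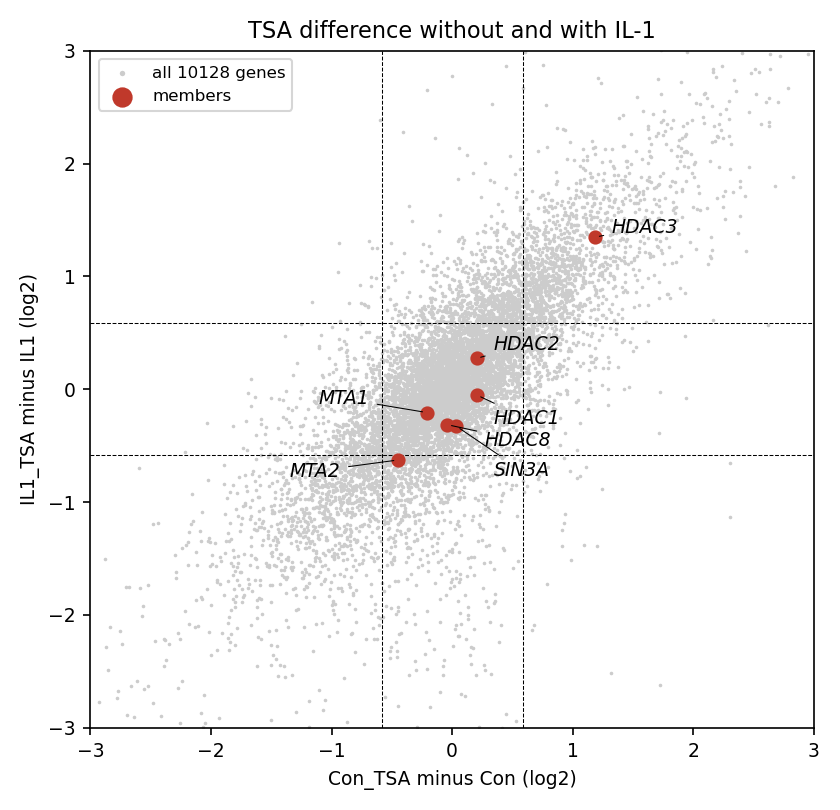
Log2 difference with TSA without IL-1 (Con_TSA minus Con, horizontal axis) against that with IL-1 (IL1_TSA minus IL1, vertical axis) for all 10128 genes in grey and the 7 named genes in red, with dashed lines at 1.5-fold and 92 genes outside the plotted range. HDAC3 lies at 1.19 and 1.35, MTA2 at −0.45 and −0.63, and the other 5 genes lie inside the 1.5-fold lines.

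The comparisons with IL-1 gave no call among the 7 genes. With IL-1 alone 0 of 7 were called, against 8.54% of all genes called higher and 7.93% called lower. With IL-1 under TSA 0 of 7 were called, against 4.2% higher and 2.75% lower. In IL1_TSA against Con, HDAC3 was called higher and MTA2 lower, where 18.2% of all genes were called higher and 18.5% lower. The median log2 difference of the 7 genes was 0.04 with TSA without IL-1, against −0.01 over all genes, and −0.21 with TSA in IL-1-stimulated cells, against 0.02. It was −0.06 with IL-1 alone, against −0.10 over all genes, and −0.16 with IL-1 under TSA, against −0.03.

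**Figure D3:**
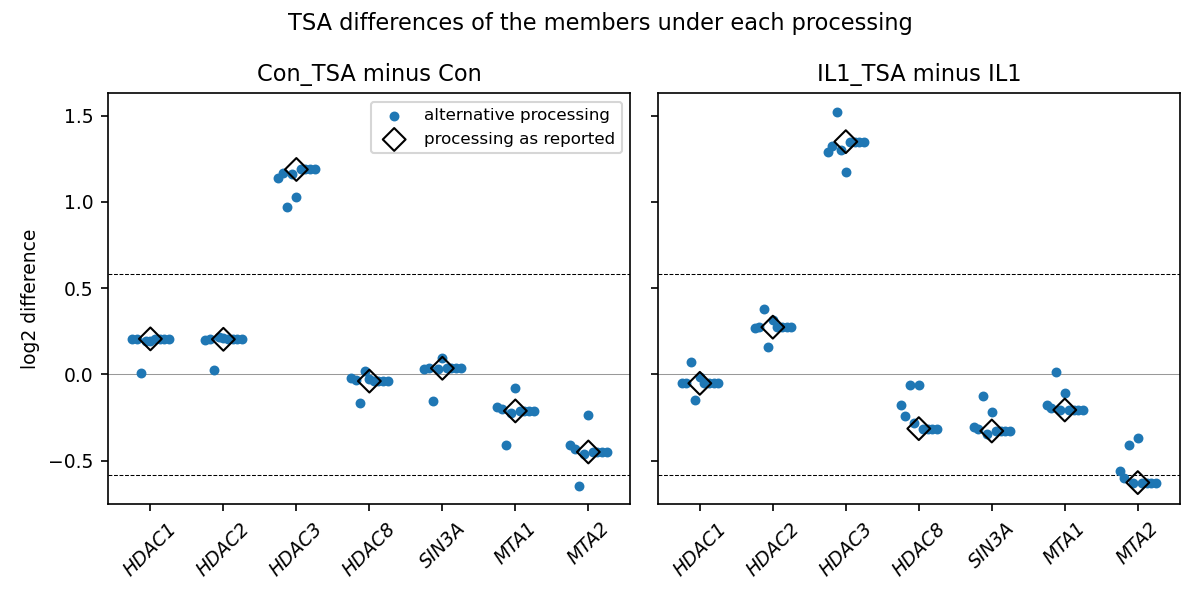
Log2 difference with TSA (vertical axis) of the 7 genes without IL-1 (left) and with IL-1 (right), with a diamond for the reported processing, a dot for each alternative and dashed lines at 1.5-fold. HDAC3 stayed between 0.97 and 1.52 in both comparisons, MTA2 lay on both sides of the 1.5-fold line, and the other genes stayed inside it.

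The mRNAs of the other subunits of these complexes give the setting of the 7 genes. Of 44 further subunits listed, 38 had a probe and 32 were detected. With TSA without IL-1, 5 of the 32 were called higher and 5 lower, with a median of 0.12, and these counts are near the shares of all genes called (16.3% higher and 16.4% lower). With TSA in IL-1-stimulated cells 8 were called higher and 5 lower, with a median of 0.30, beside 21.2% of all genes called higher and 18.2% lower. With IL-1 alone 0 were called higher and 2 lower, beside 8.54% and 7.93% of all genes. Of these 2, MIER2 was below detection on IL1, with a bound of at least 1.13-fold. With IL-1 under TSA 1 was called higher and 1 lower, beside 4.2% and 2.75% of all genes.

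Of 14 further SIN3 subunits listed, 11 were detected, and 3 were called higher and 0 lower with TSA without IL-1, with a median log2 difference of 0.54. With IL-1, 5 were called higher and 0 lower, with a median of 0.58. Over all genes 16.3% and 21.2% were called higher in these comparisons, with medians of −0.01 and 0.02. In the authors' deposited values the counts called higher were 1 and 2 and the medians 0.36 and 0.18, with 0 called lower. ING1, a reader of histone H3 methylated at lysine 4, had levels of 8.32 in Con, 8.56 in IL1, 9.84 in IL1_TSA and 9.70 in Con_TSA. It was 2.59-fold higher with TSA without IL-1 and 2.43-fold higher with IL-1, and was past 1.5-fold in the deposited values too, at log2 differences of 0.78 and 0.71. These values rest on 1 kept probe of 4. At a detection p under 0.05 or with no filter, 2 SIN3 subunits were called higher without IL-1. SIN3B and SAP18 have 1 probe each, so the call lost there was that of ING1. SIN3B, the paralogue of SIN3A and an alternative scaffold, had levels of 6.86, 6.68, 7.59 and 8.21 in the same order of arrays and was not detected on IL1. It was 2.55-fold higher with TSA without IL-1 and at least 1.82-fold higher with IL-1, where the bound sets the undetected array at its lowest detected level. In the deposited values SIN3B differed by 0.36 and 0.16, short of 1.5-fold. The other subunits called higher, named after their values were seen, were SAP18 in both comparisons and SAP30 and PHF12 with IL-1. PHF12 rested on 1 kept probe of 3. With IL-1, 4 SIN3 subunits were called higher at a detection p under 0.05 and 3 with no filter. SIN3B, SAP18 and SAP30 have 1 probe each, so the calls lost with no filter were those of ING1 and PHF12.

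Of the 11 NuRD subunits listed beside MTA1 and MTA2, 8 were detected, with medians of −0.11 for TSA without IL-1 and 0.26 with IL-1. RBBP7, a histone-binding WD-repeat protein that NuRD shares with SIN3, was 1.61-fold higher with TSA without IL-1 and 1.33-fold higher with IL-1, with levels of 10.67 in Con, 10.80 in IL1, 11.21 in IL1_TSA and 11.36 in Con_TSA. Under median scaling the difference of RBBP7 without IL-1 was 0.48, short of 1.5-fold. MTA3, the third MTA protein, had levels of 8.91, 8.53, 7.33 and 7.84 in that order. Both TSA arrays were the low ones for MTA3, by 2.10-fold without IL-1 and 2.30-fold with IL-1. In the deposited values MTA3 differed by −0.46 and −0.38, short of 1.5-fold. Of the 3 MTA genes, MTA3 was thus called lower in both comparisons, MTA2 in the one with IL-1, and MTA1 in neither.

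The HDAC3 complex itself was measured through 4 further subunits. CORO2A, an actin-binding WD-repeat component of the NCOR complex, had levels of 8.28 in Con, 8.08 in IL1, 8.83 in IL1_TSA and 9.34 in Con_TSA, which was 2.07-fold higher with TSA without IL-1 and 1.68-fold higher with IL-1. TBL1XR1, which serves in exchanging corepressors for coactivators, had levels of 8.73, 8.43, 7.59 and 7.69 and was 2.06-fold and 1.79-fold lower. In the deposited values neither gene reached 1.5-fold in either comparison. CORO2A rested on 1 kept probe of 3. Its call with IL-1 was lost at a detection p under 0.05 and with no filter. TBL1X and GPS2, the remaining core subunits, named after their values were seen, were not called. HDAC3 and these 4 subunits thus did not all share a direction on these arrays, and NCOR1 was not measured.

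Of 8 CoREST subunits 5 were detected, and 3 were called lower with TSA without IL-1 and 1 with IL-1. Over all genes 16.4% and 18.2% were called lower. The CoREST medians were −0.59 and −0.43, against −0.01 and 0.02 over all genes. The median without IL-1 depended on the detection filter. It was −0.15 over 6 genes at a detection p under 0.05, and 0.19 over 7 genes with no filter. Under median scaling the counts with IL-1 were 0 lower and 1 higher. In the deposited values 2 were called lower without IL-1 and 0 with IL-1. The same counts were found without background correction and with an offset of 50. RCOR3, a CoREST scaffold protein, had levels of 9.91 in Con, 9.10 in IL1, 8.49 in IL1_TSA and 8.49 in Con_TSA. It was 2.69-fold lower with TSA without IL-1, 1.53-fold lower with TSA in IL-1-stimulated cells and 1.76-fold lower with IL-1 alone, so Con was the high array. PHF21A, a reader of unmethylated histone H3, differed in the same direction, by 1.80-fold without IL-1 and 1.35-fold in stimulated cells, from levels of 11.13, 10.79, 10.36 and 10.28. ZNF217, 1.51-fold lower with TSA without IL-1, was the remaining CoREST gene called lower. KDM1A, the lysine demethylase of the complex, was not called. Both were named after their values were seen.

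Of the 6 MiDAC and MIER partners of HDAC1 and HDAC2, 4 were detected, and 0 were called with TSA without IL-1, against 2 higher and 2 lower with IL-1, where 21.2% and 18.2% of all genes were called (16.3% and 16.4% without IL-1). MIDEAS, a scaffold of MiDAC, had levels of 9.25 in Con, 9.37 in IL1, 10.03 in IL1_TSA and 9.30 in Con_TSA, with IL1_TSA the 1 high array. Its difference with TSA was 0.04 without IL-1 and 1.59-fold higher with IL-1. MIDEAS was the mean of 2 kept probes of 3, and the call was lost with the brightest probe alone. Without background correction 0 of the 4 were called higher with IL-1. DNTTIP1, the other MiDAC subunit, was 1.64-fold lower with TSA in IL-1-stimulated cells, from levels of 10.68, 11.04, 10.33 and 10.50. MIER1, an ELM2-SANT protein that binds HDAC1 and HDAC2, was 1.65-fold lower there, from 9.20, 9.73, 9.01 and 8.99, with IL1 the high array for both genes. MIER2 was called higher there, but its level on IL1 was below detection and the bound was at least 1.13-fold, under 1.5-fold. Under median scaling DNTTIP1 differed by −0.53 and MIER1 by −0.51, short of 1.5-fold, and in the deposited values 0 of these 4 were past it. MIER1 rested on 1 kept probe of 2, and its call was lost with no filter on detection.

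**Figure D4:**
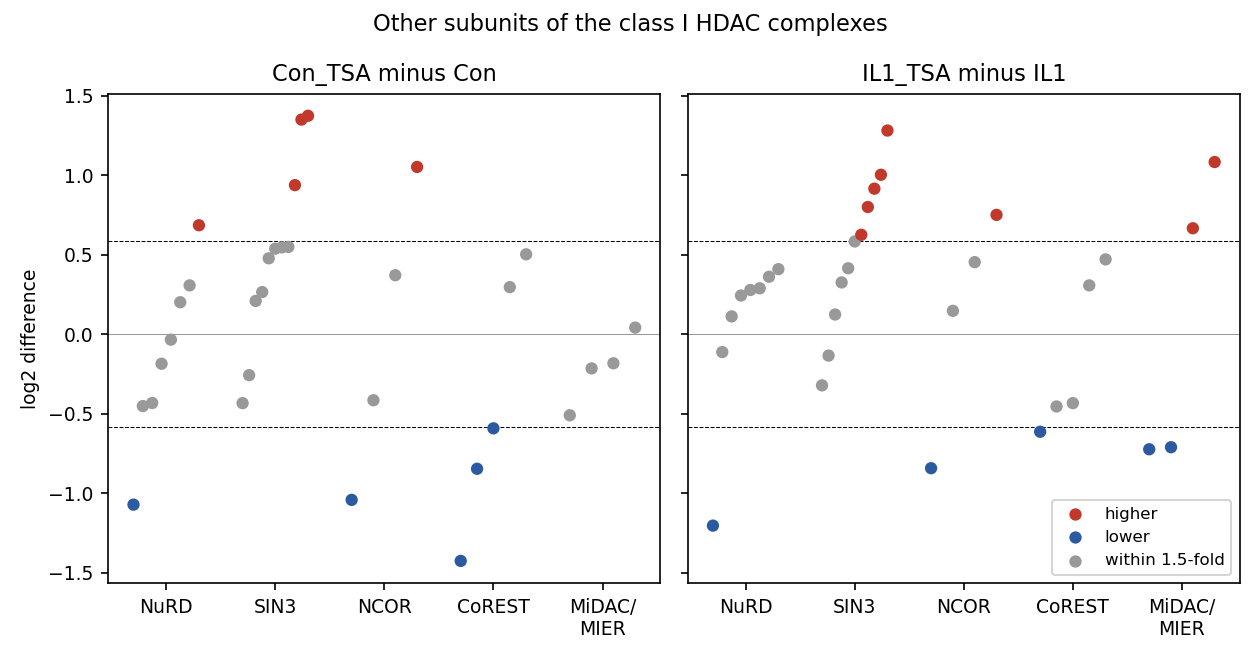
Log2 differences with TSA (vertical axis) of the other 32 detected subunits, grouped by complex along the horizontal axis and sorted within each, without IL-1 (left) and with IL-1 (right), with 1 point per gene coloured by its call and dashed lines at 1.5-fold. The SIN3 subunits past the lines all lie above (3 and 5 genes), the CoREST ones all below (3 and 1), and the MiDAC and MIER ones on both sides with IL-1.

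For comparison, 5 of the 7 class II and class IV deacetylases were detected. HDAC9, named after its values were seen, was the 1 called lower in each TSA comparison. Over all genes 16.4% were called lower without IL-1 and 18.2% with it. HDAC9 rested on 1 kept probe of 3 and was below detection on Con_TSA, where the bound was at least 1.68-fold lower than Con. HDAC6, the mostly cytoplasmic class II enzyme after which the series is titled, had levels of 7.88 in Con, 7.31 in IL1, 7.25 in IL1_TSA and 7.41 in Con_TSA, and differed with TSA by −0.48 without IL-1 and −0.06 with IL-1. Con was its high array. HDAC6 was 1.49-fold lower with IL-1 alone, short of a call. In IL1_TSA against Con it was called lower, at 1.55-fold, where 18.5% of all genes were. None of the 5 was called higher with TSA, where 16.3% of all genes were called higher without IL-1 and 21.2% with it. HDAC5 and HDAC11, named after their values were seen, were detected on Con_TSA alone. Neither could therefore be called with TSA in IL-1-stimulated cells, so the absence of a call there was partly fixed in advance.

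The genes whose pattern over the 4 arrays was most like that of HDAC3, MTA2 and MTA1 were found by the Euclidean distance between log2 levels centred on each gene's own mean, over 8360 genes with a detected probe on every array. For HDAC3 they were AFMID at a distance of 0.02, PABIR2 at 0.04 and NEK2 at 0.04. AFMID differed with TSA by 1.16 without IL-1 and 1.36 with IL-1. For MTA2 they were MYH3 at 0.01, AP1S1 at 0.02 and DERA at 0.03, and for MTA1 they were GOLGA2 at 0.02, ITGB5 at 0.03 and SF3B2 at 0.03. The distances are a description over 4 arrays.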

How the data were processed

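Total RNA from 4 samples was measured on Illumina arrays, 1 per condition. Per the study's methods the platform was Human HT-12 V4, and the annotation used here came with the platform record of the series. It appears to be of another Illumina design than the one the methods name, and probes were matched to it by ID alone, so gene assignments rest on that match. Of 48784 probes it lists 27578, 27565 with 1 gene and 13 with several, leaving 21206 unnamed. The authors deposited a raw probe intensity and a detection p-value per array without normalisation, and also deposited log2 values made with lumi, which were used as an alternative. No lumi version is given in those sources. Gene numbers were looked up in RefSeq (GRCh38.p14), where 27528 probes matched and 0 symbols changed. Promoter windows were matched for 8 of 8 genes.

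Intensities were background-corrected with neqc of limma 3.58.1 in R 4.3.3 (offset 16, negative controls inferred from the detection p-values), quantile-normalised and put on the log2 scale. Probes with a detection p under 0.01 on at least 1 array were kept, and kept probes with 1 gene symbol were averaged per gene. A gene was called at a difference of at least 1.5-fold provided that 1 of its probes was detected on the array where it was brighter. A gene below detection on the dimmer array has a lower bound for its fold, taken against the lowest detected level of that array or its own level, whichever was higher. No test was made, as each group had 1 array. The number of arrays limits the precision, and cell number cannot be told apart from RNA per cell in such bulk samples. The script was tested on simulated data. Genes named are the 7 measured, up to 2 called genes per complex list and direction with the largest TSA difference, HDAC6, and the 3 closest profiles of the 3 most variable genes, with a few others marked as named after their values were seen. The genes and lists were chosen with earlier results of these data known. Alternatives were no background correction, an offset of 50, median scaling, the deposited log2 values, other detection filters, the brightest probe and a 2-fold threshold. Median scaling read relative to the median of all genes was added after seeing the data.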

Additional observations from a re-analysis of the deposited data

Results flagged for a closer look

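SIN3A moved one way with TSA in unstimulated cells and the other way in IL-1-stimulated cells, at 0.04 and −0.33 on the log2 scale, a gap of −0.36. The same 4 levels give the IL-1 differences of SIN3A, 0.20 without TSA and −0.16 under TSA, and the same gap of −0.36. HDAC1 differed with TSA by 0.21 without IL-1 and by −0.05 with IL-1, a gap of −0.26. HDAC2 differed with IL-1 by −0.06 without TSA and by 0.01 under TSA, a gap of 0.0702. These were singled out because the signs of the single arrays' differences were opposite. None of the single differences reached 1.5-fold, the median gap between the TSA differences over all genes was 0.28, and, with 1 array per condition, the difference between the groups was not tested.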

How the results depend on the processing

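No paired analysis was possible because each condition had 1 array, and no replicate could be left out. Of 315 comparisons of a single gene under an alternative, 309 kept their direction or stayed within 1.5-fold, 5 fell below the threshold, 1 rose past it and 0 of the called differences changed sign. The detection filters and the choice of probe cannot change the value of a gene with 1 detected probe, as all 7 have. The exceptions were all for MTA2: with TSA in IL-1-stimulated cells −0.56 without background correction, −0.41 under median scaling and −0.37 in the deposited values; in IL1_TSA against Con −0.47 under median scaling and −0.44 in the deposited values; and with TSA without IL-1 −0.64 under median scaling.

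The count of the 7 genes called with TSA in IL-1-stimulated cells was 2, and 1 without background correction, under median scaling, in the deposited values and at 2-fold. In IL1_TSA against Con it was 2, and 1 under median scaling, in the deposited values and at 2-fold. With TSA without IL-1 it was 1, and 2 under median scaling. Of the other complex subunits, 13 were called with TSA in IL-1-stimulated cells, and 8 without background correction, 2 in the deposited values, 8 with no detection filter and 4 at 2-fold. With TSA without IL-1 it was 10, and 4 in the deposited values and 6 at 2-fold. With IL-1 alone it was 2, and 1 without background correction, with detection on all 4 arrays or at 2-fold, and 0 in the deposited values. The count with IL-1 alone was larger under median scaling, also when read relative to the median of all genes, and at a detection p under 0.05. With IL-1 under TSA it was 2, and 1 without background correction, with an offset of 50, with detection on all 4 arrays or with no filter, 8 under median scaling, and 0 in the deposited values or at 2-fold. Smaller changes of these subunit counts, up or down, are not listed. The cause was not tested, except that a 2-fold threshold calls fewer genes by construction.

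Median scaling moved the median of all genes to −0.19 with TSA without IL-1, 0.22 with TSA in IL-1-stimulated cells and 0.35 with IL-1 under TSA, and turned the calls over all genes from 1652 higher and 1664 lower to 1118 and 2329 in the first and from 2148 and 1847 to 3001 and 1301 in the second. Read relative to the median of all genes, an alternative added after seeing the data, it gave 1654 and 1602, and 2157 and 1873. In the deposited values 508 genes were called higher and 402 lower with TSA without IL-1, and 644 and 586 with TSA in IL-1-stimulated cells. HDAC3 kept its calls with TSA in all 10 alternatives, among which the detection filters and the choice of probe could not change its value. Signal limits HDAC8, which lay near the detection limit on every array.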
